A study of Homo sapiens with 36 samples.

Results

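The transcriptome of glucose-deprived A549 cells treated with a control siRNA was described over all protein-coding genes that were expressed. The libraries were chosen by their labels: siControl, 16 h, 3 libraries in 0 mM glucose and 3 in 25 mM, 6 of the 36 libraries of the series. Of 19957 protein-coding genes in the deposited table, 14326 passed the filter on low counts and were tested. A549 is an established human lung adenocarcinoma line. All 6 cultures carried the non-targeting siRNA at 100 nM. A transfected culture was divided over wells, which 24 h later received pyruvate-free medium with 25 mM or 0 mM glucose. Both media held 10% dialysed serum and 2 mM glutamine, so glucose was the nutrient that differed and glutamine was present throughout. The other libraries of 16 h carried siRNA against ATF4 or ATF6 and served for the spread between cultures and for a last comparison. Totals were 41.0 to 47.2 M counts in 25 mM glucose and 41.1 to 51.3 M in 0 mM. Replicates 1, 2 and 3 are separate cultures of 1 line, so p-values measure the spread between such cultures.

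Glucose feeds glycolysis and the pentose phosphate pathway, and it supplies the sugar nucleotides with which proteins are glycosylated in the endoplasmic reticulum (ER) and the Golgi. When it is lacking, unfolded glycoproteins collect in the ER and induce chaperones through ATF6, IRE1 and PERK, while ATF4 induces amino acid synthesis and transport. A fall in ATP activates AMPK, low nutrients silence mTORC1, and cells short of both stop entering S phase. Those ER stress and ATF4 target genes, 217 of them tested in 7 lists, are set aside here except as a yardstick, and the remaining 14109 genes are described.

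Markers of other cell types were low beside those of lung epithelium. Summed levels of 5 lung epithelial markers were 4944 to 8395 CPM (counts scaled to library size, here by the deposited total) in 25 mM glucose and 3128 to 5638 CPM in 0 mM. Endothelial and red cell markers summed to at most 0.593 and 1.03 CPM in any library. Immune markers summed to 30.7 to 52.6 CPM in 25 mM and 27.4 to 76.2 CPM in 0 mM. Most of that was CD68, a lysosomal protein of macrophages, at up to 74.0 CPM in deprived replicate 1, and CD14 reached 7.35 CPM in 25 mM. The leukocyte marker PTPRC reached 0.0423 CPM, and T-cell CD3E was at 0. The part of these markers in the results was not tested. Fibroblast markers, mainly the collagen COL1A1, summed to 21.9 to 24.6 CPM in 25 mM and 7.32 to 9.42 CPM in 0 mM. Epithelial adhesion genes were low: EPCAM reached 6.59 CPM and CDH1 35.6 CPM at most. Fewer cells of a type and less RNA per cell cannot be told apart in bulk libraries. Replicate 1 stood apart from replicates 2 and 3 in both groups, with a mean chi-square per gene of 52.4 to 102 against them, where replicates 2 and 3 gave 9.83 in one group and 14.6 in the other. Values that rest on replicate 1 are therefore also given without it.

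Glucose deprivation changed a large share of the expressed genes, in nearly equal numbers each way. Of 14326 protein-coding genes, 2233 rose (15.6%) and 2375 fell (16.6%) in 0 mM glucose at an adjusted p under 0.05 (edgeR's quasi-likelihood test). A change of at least 1 on the log2 scale was reached by 755 that rose (5.27%) and 772 that fell (5.39%). Of at least 2, 208 rose (1.45%) and 118 fell (0.824%). The far end was one-sided, since 89 genes rose by at least 3 on the log2 scale (0.621%) and 21 fell by as much (0.147%). Outside the ER stress and ATF4 lists, 2075 of 14109 genes rose and 2362 fell, with a median log2 fold change of -0.01. Within those lists 158 of 217 rose and 13 fell, with a median of 0.96. All fold changes compare 0 mM with 25 mM glucose, on the log2 scale. The standard error (SE) beside them was not given by the fit. It is the size of the fold change divided by the square root of the test's F statistic. These counts come from the 18 libraries of 16 h. A fit that takes in the 18 libraries of 6 h as well called 249 up and 214 down. Among the 6 h libraries, siATF4 0 mM replicate 3 held 2.87 M counts, 65.2% of them protein-coding. The siControl libraries of 16 h held 41.0 to 51.3 M counts. The cause of the drop in calls was not tested.

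**Figure D1:**
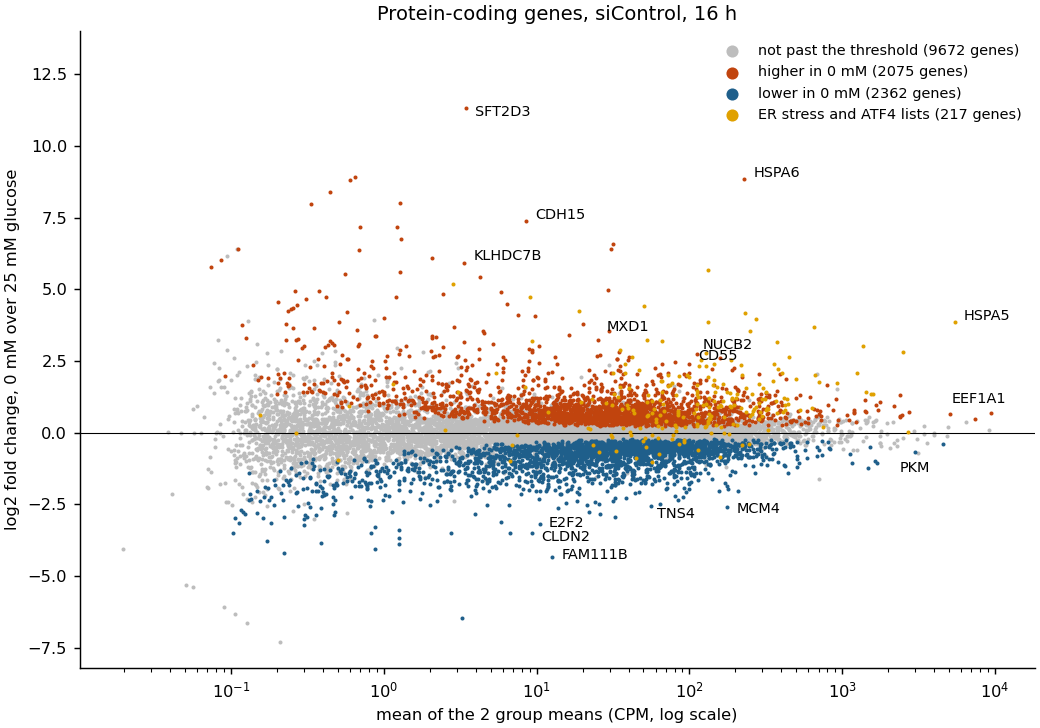
Log2 fold change (0 mM against 25 mM glucose, vertical) against mean level in CPM (log axis, horizontal) for the 14326 protein-coding genes tested in siControl cells at 16 h, with genes past the threshold in colour (2233 up, 2375 down). The largest increases lie at low to middle levels, and both directions hold genes at every level.

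The same balance held in read shares. The genes that rose outside those lists took 14.04 ± 0.263% of protein-coding reads in 25 mM glucose and 21.9 ± 0.859% in 0 mM (SD, n = 3). Those that fell took 20.04 ± 0.260% and 11.5 ± 0.409%. The 217 ER stress and ATF4 genes went from 3.04 ± 0.0781% to 7.42 ± 0.122%. The genes were grouped by their own change, so the shares describe its size only. The 3 libraries in 0 mM lay above all 3 in 25 mM for 2214 of the genes that rose, and below them for 2355 of those that fell; among all tested genes such separation occurred upward for 27.1% and downward for 29.5%.

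The largest increases brought out genes that were nearly silent in glucose. CDH15, which encodes the muscle cadherin of myoblasts, was at 0.0196, 0.173 and 0.112 CPM in 25 mM glucose and 16.3, 15.7 and 18.5 CPM in 0 mM. The groups did not come near each other, and the log2 fold change was 7.37 ± 0.471 (SE, adjusted p = 1.94e-08), or 8.00 without glucose replicate 2. KLHDC7B, a kelch-repeat protein, was at 0.118, 0.130 and 0.0670 CPM in 25 mM glucose and 7.15, 5.66 and 6.90 CPM in 0 mM (log2 fold change 5.93 ± 0.351). LAMP3, a lysosomal membrane protein of dendritic cells and type 2 pneumocytes, was at 0.628, 0.238 and 0.246 CPM in 25 mM glucose and 14.2, 9.57 and 10.0 CPM in 0 mM (4.90 ± 0.464, or 5.53 without glucose replicate 1). In both genes the 3 deprived cultures were close to each other and far above every culture in glucose. RAB39B, a small GTPase of vesicle traffic, rose by 3.79, PRDM16, a zinc finger factor known from brown fat, by 3.67, and RPS6KA2, a ribosomal S6 kinase, by 3.55. BEX4, a small protein of the BEX family on the X chromosome, rose by 4.11, and its relative BEX2 by 3.54, from 4.72 ± 0.105 to 54.8 ± 5.17 CPM. In all, 9 genes went from under 1 CPM in every glucose library to at least 5 CPM in every deprived one, while no gene went the other way. SFT2D3 is counted among them, but its exons lie wholly inside WDR33 on the other strand, and without strand information its reads cannot be told from those of WDR33.

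EGR1, FOSB and HSPA6 rose with a wide spread among the deprived cultures. EGR1, a zinc finger factor induced by growth signals, was at 0.825, 0.497 and 0.804 CPM in 25 mM glucose and 142, 10.1 and 28.9 CPM in 0 mM. FOSB, a subunit of the AP-1 factor, was at 0.648, 0.627 and 0.670 CPM in 25 mM glucose and 149.9, 10.4 and 28.7 CPM in 0 mM, and HSPA6, a strictly inducible member of the HSP70 chaperones, at 0.845, 1.28 and 0.871 CPM in 25 mM glucose and 1016, 105 and 243 CPM in 0 mM. In each of them deprived replicate 1 was the highest library by a wide margin, and every deprived library lay above every glucose library. Log2 fold changes were 6.40 ± 1.16, 6.60 ± 1.23 and 8.83 ± 1.22, and without that library 4.77, 4.90 and 7.44, all past the threshold. FOS, the partner of JUN in AP-1, went from 4.97 to 3.12 without it. ARC, an activity-regulated gene of neurons, and RASD1, a dexamethasone-induced GTPase, rose by 4.07 and 4.50, and no longer passed when deprived replicate 1 was left out (2.21, adjusted p = 0.0878, and 2.33, adjusted p = 0.152). ATP6V0D2, a proton pump subunit, rose by 5.42 and likewise missed the threshold then (3.69, adjusted p = 0.0573), while without glucose replicate 1 it stood at 7.48. RASD1 missed it also without glucose replicate 1 (adjusted p = 0.0611) or 3 (adjusted p = 0.0591), and with a block on the transfection (adjusted p = 0.0687). Of 1930 genes that rose and averaged at least 5 CPM in 0 mM, 19 had a deprived library at least 3 times another. Replicate 1 was the highest in 18 of the 19, which include SNAI1, HBEGF, PGF, DNAJB1, MXD1, ZFP36 and IGFBP1, and replicate 3 in SYTL1.

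**Figure D2:**
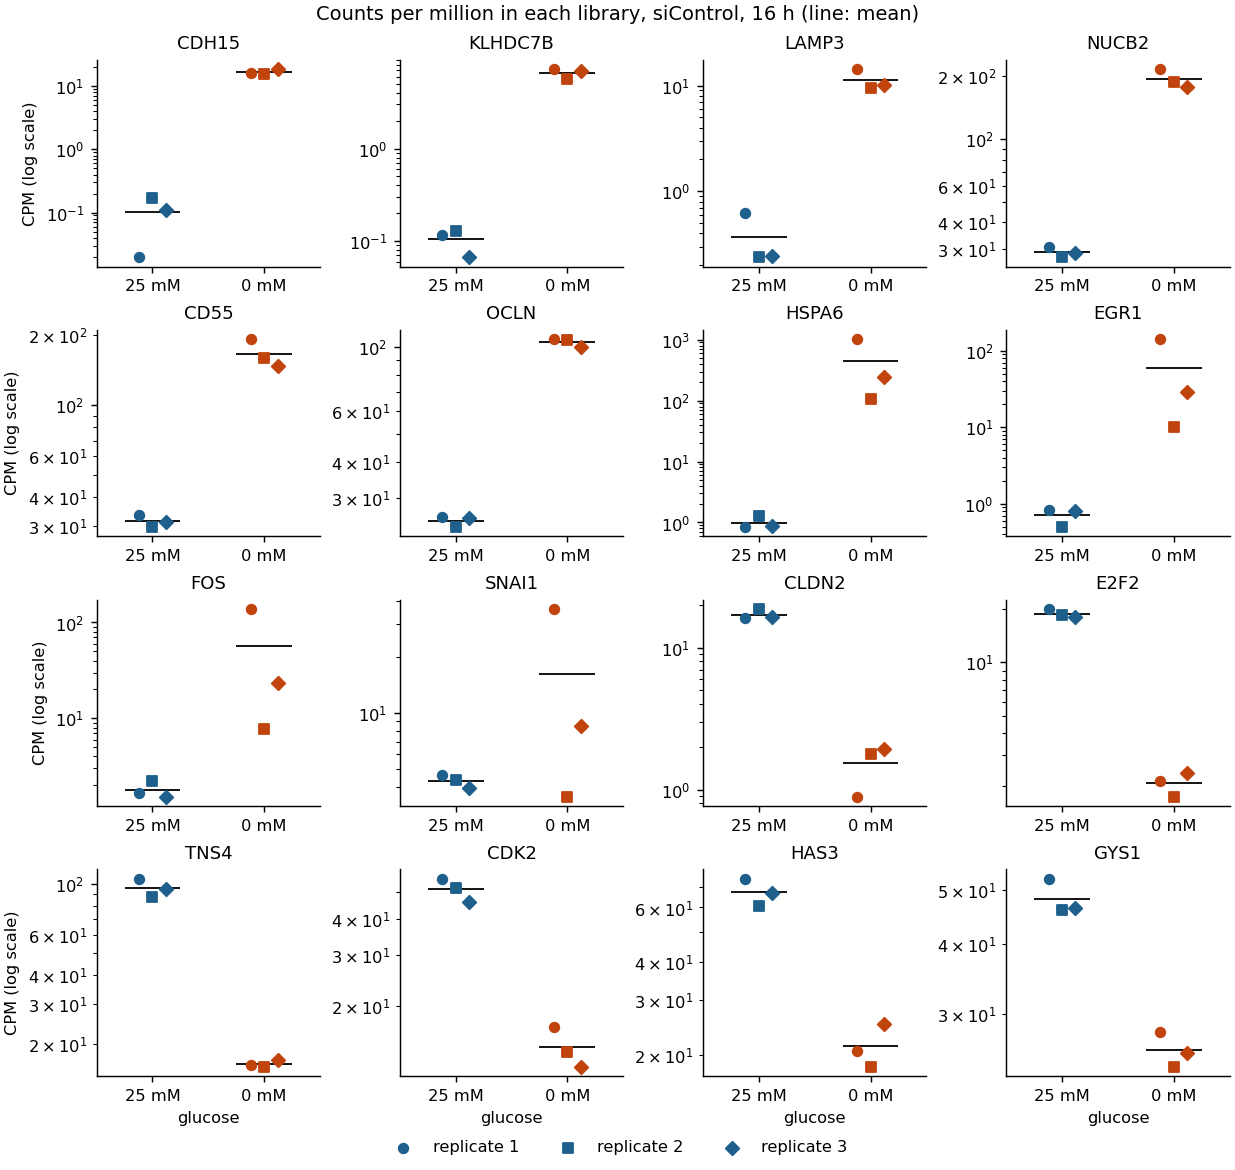
CPM on a log axis in each of the 6 siControl libraries at 16 h for selected genes named in the text, with 1 point per library and the replicate number marked. Genes such as CDH15 and KLHDC7B form tight groups, while HSPA6, EGR1 and FOS are highest in deprived replicate 1.

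Several of the largest decreases were in genes of DNA replication. FAM111B, a protease that rises in S phase, was at 28.8, 22.1 and 21.6 CPM in 25 mM glucose and 2.55, 0.572 and 0.454 CPM in 0 mM (-4.32 ± 0.587, adjusted p = 4.61e-05, and -5.54 without deprived replicate 1). E2F2, a transcription factor of S-phase entry, was at 20.1, 18.5 and 18.1 CPM in 25 mM glucose and 2.12, 1.74 and 2.37 CPM in 0 mM, and MCM10, a replication initiator, at 63.7, 56.0 and 52.3 CPM in 25 mM glucose and 8.77, 7.32 and 6.43 CPM in 0 mM. Deprived libraries lay far below glucose libraries in all 3 genes, and the log2 fold changes of the latter pair were -3.19 and -2.93. Others of that kind were the histone chaperone ASF1B (-2.84), the checkpoint adaptor CLSPN (-2.76), the helicase subunit MCM4 (-2.60), the origin protein ORC1 (-2.53), TCF19 (-2.63) and the repressor E2F8 (-2.52). Outside the cell cycle, CLDN2, the claudin that forms a paracellular cation pore, was at 16.2, 18.7 and 16.5 CPM in 25 mM glucose and 0.891, 1.77 and 1.94 CPM in 0 mM. Its deprived libraries all lay far below the glucose libraries, a log2 fold change of -3.48 ± 0.314 (adjusted p = 7.52e-07). TNS4, a focal adhesion protein, was at 105, 87.4 and 94.6 CPM in 25 mM glucose and 16.2, 16.0 and 17.1 CPM in 0 mM (-2.54). NES, the intermediate filament nestin, stood at a log2 fold change of -3.10, NCALD, a neuronal calcium sensor, at -3.52, and SYT12, a synaptotagmin, at -2.85. RNF43, a ubiquitin ligase that removes Wnt receptors, stood at -3.50, with 59.5% of its exon length shared with another gene on the same strand.

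Some of the most abundant mRNAs changed as well. In reads, which scale with transcript length, EEF1A1, the elongation factor that carries aminoacyl-tRNA to the ribosome, had the largest gain, standing at 7330, 7433 and 6835 CPM in 25 mM glucose and 12970, 11780 and 10340 CPM in 0 mM (log2 fold change 0.70 ± 0.117, adjusted p = 0.000296). All 3 deprived libraries lay above all 3 glucose libraries. EEF2, the translocase of elongation, gained 0.94, the autophagy receptor SQSTM1 1.31, the saposin precursor PSAP 0.96 and thioredoxin reductase TXNRD1 0.62. RPL13A, a ribosomal protein, rose by 0.71 but not once every replicate 1 was left out (0.68, adjusted p = 0.0889). The heavy ferritin chain FTH1 (0.65) missed the threshold without deprived replicate 1 (0.52, adjusted p = 0.0829) or without glucose replicate 2 or 3 (adjusted p = 0.0519 and 0.0574), and 62.4% of its exon length is shared with BEST1; light ferritin FTL stood at 0.38 and did not pass (adjusted p = 0.268). PKM, the pyruvate kinase of the last glycolytic step, had the largest loss, standing at 3770, 3749 and 3455 CPM in 25 mM glucose and 2329, 2318 and 2263 CPM in 0 mM (-0.67 ± 0.116, adjusted p = 0.000408). LDHA, lactate dehydrogenase, fell with it (-1.05), whereas GAPDH, whose libraries overlapped, stood at -0.11 (adjusted p = 0.718). Tubulins TUBA1B (-1.07) and TUBB (-0.76), the IGF-binding protein IGFBP4 (-1.23) and TNS3, a focal adhesion protein (-1.40), were among the other losses. HSPA8, the constitutive HSP70, fell by 0.97 on the log2 scale but missed the threshold without deprived replicate 3 (-0.81, adjusted p = 0.0535). The actins went opposite ways: ACTG1, cytoplasmic gamma actin, rose by 0.47, and ACTB, beta actin, stood at -0.38 (adjusted p = 0.0259), a call that was lost with any of the 6 libraries left out (adjusted p of 0.0536 to 0.0765) or with the transfection block (0.0600).

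The remaining genes were read through 68 lists of pathways, complexes and cell types with 2170 tested members, of which 333 rose and 447 fell. Counts below are members past the threshold over members tested. They are to be read beside the 15.6% of all genes that rose and the 16.6% that fell, with a median fold change near 0. With the ER stress and ATF4 lists included, 56 of 150 such counts, all but 5 of them under 10, moved by over 1.5 times when some library was left out, so small counts are given for completeness. Beside a count stands its value in 4 other fits where it moved by over 1.5 times and either value was at least 5: with a block on replicate number, with a block on the transfection (siRNA and number together), without every library numbered replicate 1, and without siATF4 deprived replicate 3, which stands apart from its group.

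**Figure D3:**
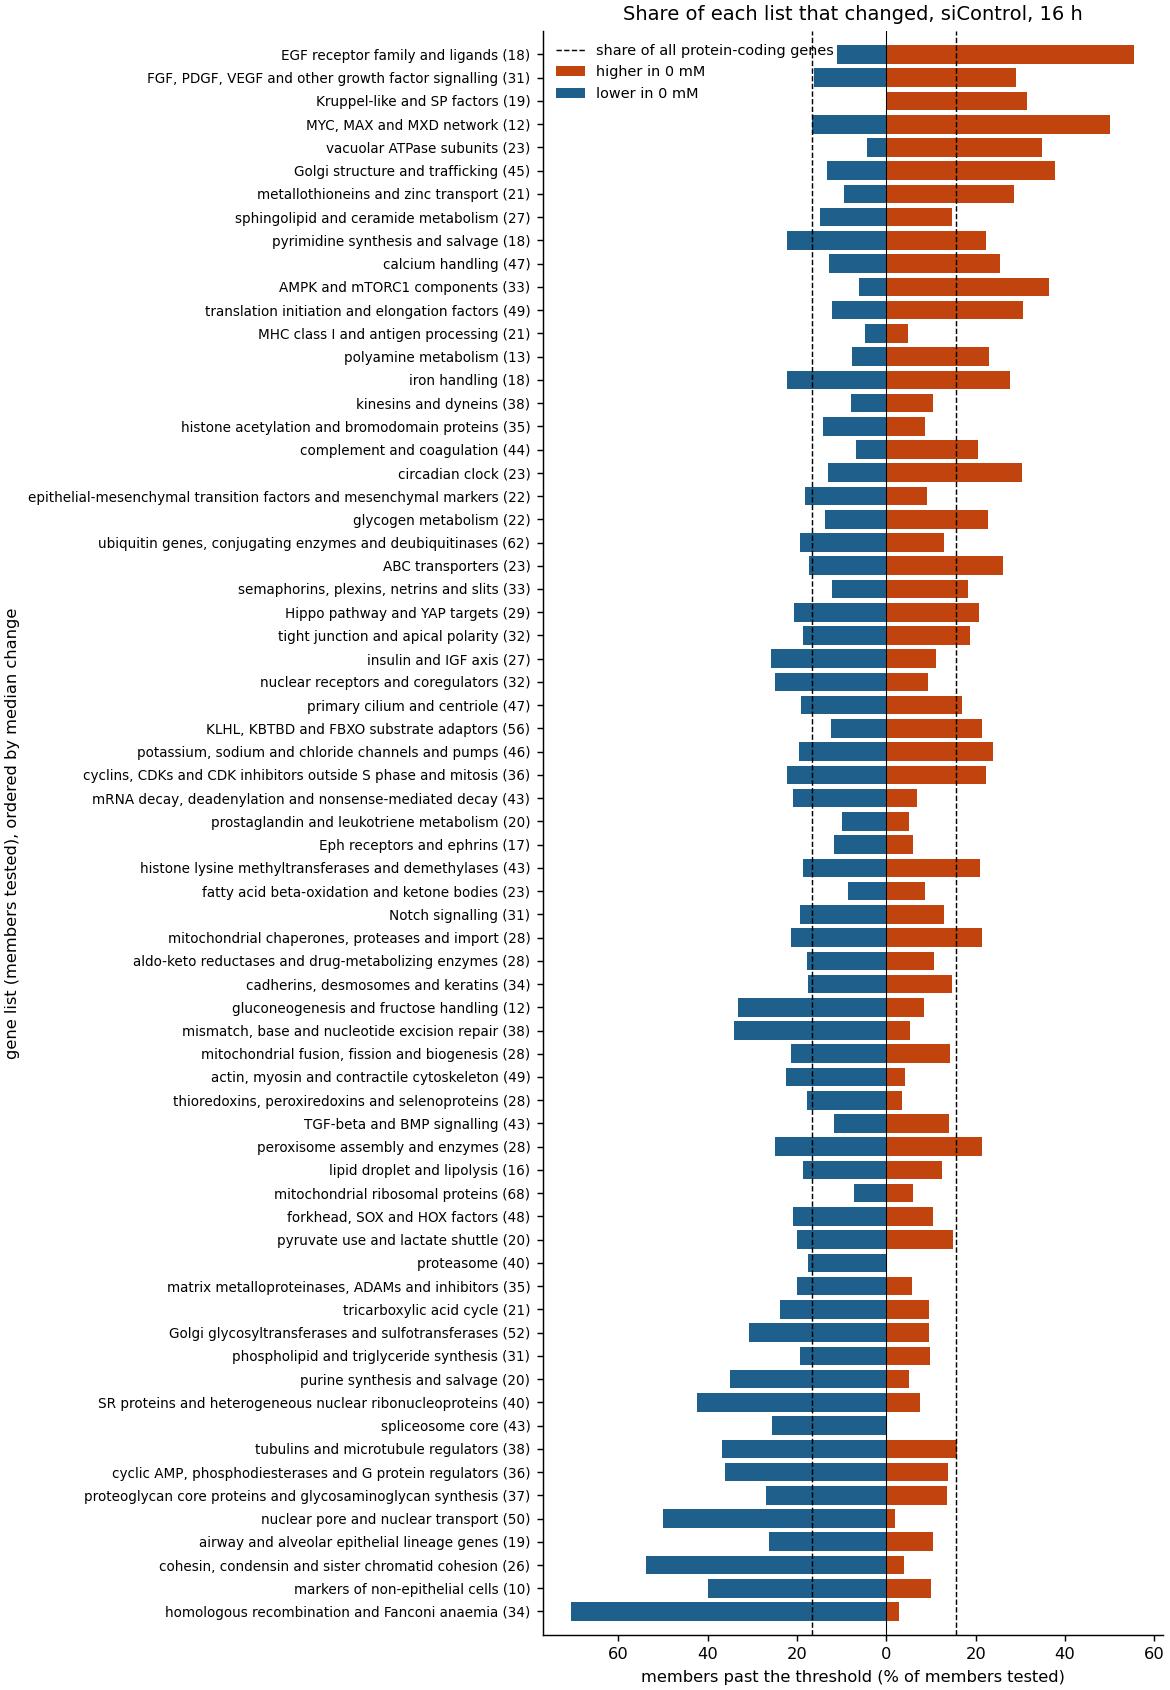
Percent of tested members that rose (right) and fell (left) in each of the 68 lists, with the percentages over all 14326 genes drawn as lines. Homologous recombination, cohesin and condensin, and nuclear pore lists reach farthest to the left, and EGF receptor ligands and the MYC network farthest to the right.

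Genes of central carbon metabolism went both ways. In the tricarboxylic acid cycle 2 of 21 rose and 5 fell (median -0.18, 9 down with the replicate block). SDHA, the flavoprotein of succinate dehydrogenase, was at 133, 144 and 134 CPM in 25 mM glucose and 79.2, 88.1 and 85.5 CPM in 0 mM (-0.70 ± 0.101). The list also counts IDH1, the cytosolic isocitrate dehydrogenase that makes NADPH, which is not an enzyme of the mitochondrial cycle. IDH1 went the other way, at 205, 198 and 188 CPM in 25 mM glucose and 412, 511 and 468 CPM in 0 mM (1.24 ± 0.119). The libraries of the conditions did not overlap in either gene. Citrate synthase CS (-0.44) and fumarase FH (-0.54) fell. Without deprived replicate 3, 3 genes of the list fell. Of pyruvate and lactate genes 3 of 20 rose and 4 fell (7 up and 7 down with the replicate block, 5 up with the transfection block, 6 up and 7 down without the siATF4 library). The pyruvate dehydrogenase kinases PDK4 (-1.68) and PDK3 (-0.55) fell, and MPC1, a subunit of the mitochondrial pyruvate carrier, rose (1.05). In beta-oxidation and ketone body genes 2 of 23 rose and 2 fell, with HADH, a dehydrogenase of short chains, at -0.78.

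Genes of glycogen synthesis rose in part and fell in part. Of the list 5 of 22 rose and 3 fell. PPP1R3B, which brings a phosphatase to glycogen and so activates its synthesis, was at 14.8, 10.9 and 11.8 CPM in 25 mM glucose and 47.5, 34.7 and 38.1 CPM in 0 mM (1.68 ± 0.223). PPP1R3C, of the same family, rose by 0.98, UGP2, the enzyme that makes UDP-glucose, by 0.68, and the branching enzyme GBE1 by 0.44. The muscle-type glycogen synthase GYS1 (52.4, 46.0 and 46.4 CPM in 25 mM glucose and 27.9, 24.2 and 25.6 CPM in 0 mM) and GYG2, the protein primer of glycogen, fell (log2 fold changes -0.90 and -1.12). All 6 libraries of PPP1R3B and of GYS1 separated by glucose. In gluconeogenesis and fructose handling 1 of 12 rose and 4 fell. SORD, which makes fructose from sorbitol, fell (-0.96), as did fructokinase KHK (-1.27) and PFKFB3, the kinase that makes the activator of phosphofructokinase (-0.91), whereas PFKFB2 of the same family rose (0.84), though not with every replicate 1 left out (0.91, adjusted p = 0.0658).

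Nucleotide synthesis moved in part with replication genes and in part against them. Of purine genes 1 of 20 rose and 7 fell (median -0.22), among them PRPS1 (-0.71) and PRPS2 (-0.88), which make the ribose donor, and GMPS (-0.55). Pyrimidine genes went both ways (4 of 18 rose and 4 fell). CTPS1, a CTP synthase, was at 157, 183 and 186 CPM in 25 mM glucose and 331, 453 and 402 CPM in 0 mM (1.17 ± 0.184), while its paralogue CTPS2 fell by 0.79 on the log2 scale and UMPS, which completes UMP, stood at -0.82. UPP1, the phosphorylase that frees ribose phosphate from uridine, was at 58.5, 76.0 and 73.5 CPM in 25 mM glucose and 248, 195 and 214 CPM in 0 mM (1.66 ± 0.232). Deprived libraries of UPP1 and CTPS1 were all above glucose libraries. Polyamine genes had 3 of 13 rose and 1 fell, with the catabolic enzymes SAT1 (2.03) and SMOX (1.17) up.

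In lipid lists neither direction prevailed. In phospholipid and triglyceride synthesis 3 of 31 rose and 6 fell (10 down with the replicate block, 5 up and 11 down without the siATF4 library), with the choline and ethanolamine kinases CHKA (-0.95) and ETNK1 (-1.12) down. Sphingolipid genes had 4 of 27 rose and 4 fell (7 up with the replicate block or without the siATF4 library). UGCG, which makes glucosylceramide, rose by 1.43, but missed the threshold without deprived replicate 1 (1.06, adjusted p = 0.0535). In lipid droplets and lipolysis 2 of 16 rose and 3 fell (6 down with the replicate block, 5 down with the transfection block). The droplet coat PLIN2 (1.22) missed the threshold without that library (0.66, adjusted p = 0.115) or without glucose replicate 2 or 3 (adjusted p = 0.0566 and 0.0534), while the phospholipase PNPLA8 (1.38) and the lipase LIPE (-0.98) kept theirs in every such fit.

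Several metal carriers rose and others fell. In iron handling 5 of 18 rose and 4 fell. SLC39A14, which imports zinc and iron, was at 179.8, 184 and 185 CPM in 25 mM glucose and 732, 618 and 672 CPM in 0 mM (1.88 ± 0.167, adjusted p = 6.5e-07). All deprived libraries lay far above the glucose libraries. STEAP3, a ferrireductase, rose by 0.90 and ISCU, the scaffold for iron-sulfur clusters, by 0.90; NFS1, the desulfurase that supplies the sulfur, fell (-0.75). In metallothioneins and zinc transport 6 of 21 rose and 2 fell. Among those that rose were SLC39A11 (0.55), SLC30A5 (0.55), SLC30A7 (0.80) and SLC39A7 (0.40), all carriers of zinc. The zinc carriers SLC39A10 (-0.97) and SLC39A3 (-0.69) fell, and both calls were lost with every replicate 1 left out. The iron carriers SLC40A1 (-1.08) and SLC25A28 (-0.58) fell too. Redox enzymes outside NRF2 targets had 1 of 28 rose and 5 fell (3 down with the transfection block or without replicate 1): catalase CAT (-0.87) and SELENON (-0.72) fell and SEPHS2, which makes selenophosphate for selenoproteins, rose (1.52). Drug-metabolizing enzymes had 3 of 28 rose and 5 fell (5 up with the replicate block or without the siATF4 library). ALDH3A2, which oxidizes fatty aldehydes, fell (-0.84), and CYP24A1, which inactivates vitamin D, stood at -1.19, a call lost without deprived replicate 1 (-0.89, adjusted p = 0.0724).

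Mitochondrial genes outside the respiratory chain changed in either direction. Mitochondrial ribosomal proteins had 4 of 68 rose and 5 fell (median -0.15, 8 down with the replicate block, 3 down without replicate 1, 19 down without the siATF4 library). In the 6 siControl libraries fitted alone 24 of them fell. Of chaperones, proteases and import factors 6 of 28 rose and 6 fell (3 down without replicate 1). HSPA9, the matrix HSP70, was at 535, 555 and 541 CPM in 25 mM glucose and 1096, 1083 and 1023 CPM in 0 mM (0.97 ± 0.0926), its nucleotide exchange factor GRPEL2 rose by 0.66, and the protease LONP1 by 0.91. These 3 genes of matrix protein quality control separated by glucose in all libraries. In fusion, fission and biogenesis 4 of 28 rose and 6 fell (3 down without replicate 1), with the mitophagy receptor BNIP3L up (1.39) and the RNA polymerase POLRMT down (-0.65). Peroxisomal genes had 6 of 28 rose and 7 fell (2 up without replicate 1), with ABCD3, an importer of fatty acids, down (-0.65).

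In 3 lists of genome maintenance far more genes fell than rose. In homologous recombination and the Fanconi pathway 1 of 34 rose and 24 fell (median -1.14). EXO1, the nuclease that resects DNA ends, was at 33.3, 30.4 and 28.8 CPM in 25 mM glucose and 7.29, 6.25 and 4.21 CPM in 0 mM (-2.38 ± 0.190, adjusted p = 2.09e-07). FANCA, of the Fanconi core complex, was at 46.6, 49.9 and 48.7 CPM in 25 mM glucose and 14.8, 19.4 and 19.1 CPM in 0 mM (-1.44 ± 0.127). RAD54L, a motor of strand exchange, fell by 1.82 on the log2 scale, and only FANCF rose (0.61). With any library left out, 24 to 24 members fell. In cohesin and condensin 1 of 26 rose and 14 fell (median -0.59), with the acetyltransferase ESCO2 (-2.15), sororin CDCA5 (-1.66) and the condensin subunit NCAPD3 (-1.64). ESCO1, the paralogue of ESCO2, stood at 0.54 with a call that was lost with any library left out or with the transfection block (adjusted p = 0.0652). In mismatch and excision repair 2 of 38 rose and 13 fell (median -0.09); ligase LIG1 was at 85.3, 94.7 and 85.1 CPM in 25 mM glucose and 22.9, 27.0 and 26.5 CPM in 0 mM (-1.79 ± 0.100), the uracil glycosylase UNG stood at -1.49 and NEIL3 at -1.44, while XPC, which senses damage, rose (0.48). LIG1 and EXO1 separated the conditions in all 6 libraries. Of cyclins, CDKs and inhibitors that belong to neither S phase nor mitosis lists 8 of 36 rose and 8 fell. CDK2, the kinase of S-phase entry, fell (-1.83), as did the inhibitor CDKN2C (-1.98). CCNG2, a cyclin known from quiescent cells, was at 5.30, 4.61 and 4.25 CPM in 25 mM glucose and 25.3, 17.4 and 18.9 CPM in 0 mM (2.12 ± 0.323), and CCNI rose by 0.81. 

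Chromatin enzymes moved both ways. Among histone lysine methyltransferases and demethylases 9 of 43 rose and 8 fell. KDM7A, a demethylase, was at 3.52, 2.88 and 3.48 CPM in 25 mM glucose and 17.4, 10.8 and 11.8 CPM in 0 mM (2.02 ± 0.359), KDM5B rose by 0.80, and the heterochromatin methyltransferases SUV39H1 (-1.21) and SUV39H2 (-0.80) fell. Acetylation and bromodomain genes had 3 of 35 rose and 5 fell (3 down without replicate 1, 8 up and 8 down without the siATF4 library), with HAT1, which acetylates new histones (-0.76), and HDAC1 (-0.52) down and HDAC6, the cytoplasmic deacetylase (0.56), up.

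In RNA processing and transport more genes fell than rose. In nuclear pore and nuclear transport 1 of 50 rose and 25 fell (median -0.38, 12 down without replicate 1), and 17 to 23 fell with any library left out. KPNA2, an importin that carries cargo with a basic signal, was at 582, 594 and 575 CPM in 25 mM glucose and 251, 282 and 252 CPM in 0 mM (-1.16 ± 0.106, adjusted p = 9e-07). Pore proteins NUP62 (-0.86) and NUP93 (-0.76) and RCC1, the exchange factor of Ran (-0.86), fell as well, and the single gene that rose was XPOT, the exporter of tRNA (0.95). Of SR proteins and hnRNPs, which bind pre-mRNA and set splice choices, 3 of 40 rose and 17 fell (median -0.24, 10 down without replicate 1). HNRNPA2B1 was at 909.8, 953 and 941 CPM in 25 mM glucose and 499.8, 592 and 551 CPM in 0 mM (-0.77 ± 0.113), HNRNPM stood at -0.73 and SRSF2 at -0.91, with 36.7% of the SRSF2 exon length shared with MFSD11; CLK1, the kinase that phosphorylates SR proteins, rose (1.21). Without deprived replicate 3, 10 members fell. In the spliceosome core 0 of 43 rose and 11 fell (7 down without replicate 1, 17 down without the siATF4 library), among them the helicase DHX15 (-0.73) and SNRPD3 (-0.79), and without glucose replicate 2 the decreases numbered 7. In mRNA decay 3 of 43 rose and 9 fell (5 up without the siATF4 library): UPF1, the helicase of nonsense-mediated decay (-0.66), and the decapping scaffold EDC4 (-0.70) fell, and BTG1, which recruits deadenylases, rose (1.28). ZFP36, which binds AU-rich elements, stood at 1.30 and missed the threshold without deprived replicate 1 (0.64, adjusted p = 0.108).

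Of translation factors more rose than fell. In the list 15 of 49 rose and 6 fell (median 0.15, 3 down without replicate 1, 12 down without the siATF4 library). EIF1, which guards start codon choice, was at 396, 385 and 367 CPM in 25 mM glucose and 1360, 1197 and 1093 CPM in 0 mM (1.67 ± 0.174, adjusted p = 3.42e-06). The poly(A)-binding protein PABPC1 rose by 0.76 and the helicase EIF4A2 by 1.00. All deprived EIF1 libraries lay far above the glucose libraries. EIF4E, which binds the cap, fell (-0.54), and so did EIF4E2 (-0.70). With any library left out 15 to 17 factors rose.

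In protein turnover the proteasome had no member that rose. Of its genes 0 of 40 rose and 7 fell (median -0.16, 12 down without the siATF4 library). PSMD1, a scaffold of the regulatory particle, was at 216, 214 and 210.0 CPM in 25 mM glucose and 132, 123 and 118 CPM in 0 mM (-0.78 ± 0.0779), and the activator PSME3 fell by 0.56 on the log2 scale. Ubiquitin genes, conjugating enzymes and deubiquitinases had 8 of 62 rose and 12 fell (13 up with the replicate block, 5 down without replicate 1, 14 up without the siATF4 library), with USP5, which recycles ubiquitin chains, down (-0.62) and USP16 up (0.62). Substrate adaptors of the KLHL, KBTBD and FBXO type had 12 of 56 rose and 7 fell (11 down with the replicate block). FBXO42 was at 18.2, 17.8 and 16.9 CPM in 25 mM glucose and 37.1, 37.3 and 35.05 CPM in 0 mM (1.05 ± 0.0956), FBXO25 rose by 0.97, and KLHL13, an adaptor in mitosis, stood at -2.76. Without deprived replicate 1 the adaptors that rose numbered 7.

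Along the secretory pathway, more vesicle traffic genes rose than fell, and more enzymes that build glycans fell than rose. In Golgi structure and trafficking 17 of 45 rose and 6 fell (median 0.21, 11 up without replicate 1), and 13 to 17 rose with any library left out. ARFGAP3, which releases coats from COPI vesicles, was at 26.4, 23.0 and 22.7 CPM in 25 mM glucose and 70.1, 60.9 and 55.8 CPM in 0 mM (1.37 ± 0.131). STX5, the syntaxin of ER to Golgi fusion, was at 25.9, 25.7 and 24.8 CPM in 25 mM glucose and 64.1, 52.7 and 53.4 CPM in 0 mM (1.16 ± 0.136), and the golgin GOLGA5 rose by 0.90. The groups were far apart in both genes. The small GTPase ARF3 (-0.61) and GOLM1 (-0.54) fell. Of Golgi glycosyltransferases and sulfotransferases 5 of 52 rose and 16 fell (median -0.18, 9 up with the replicate block, 8 up with the transfection block, 10 up without the siATF4 library). GALNT2, which starts mucin-type glycans, was at 381, 333 and 338 CPM in 25 mM glucose and 191, 194 and 208 CPM in 0 mM (-0.83 ± 0.0981), with GALNT11 (-0.98) and GALNT18 (-1.16) beside it, and MGAT3, which adds bisecting N-acetylglucosamine, stood at -2.32. ST6GALNAC4, a sialyltransferase, rose (1.495). In proteoglycans and glycosaminoglycan synthesis 5 of 37 rose and 10 fell (median -0.31). HAS3, which makes hyaluronan from UDP sugars, was at 74.3, 60.7 and 66.7 CPM in 25 mM glucose and 20.6, 18.3 and 25.2 CPM in 0 mM (-1.65 ± 0.158), syndecan SDC1 stood at -0.64, and the chondroitin polymerizing factor CHPF rose (0.94). HAS3 and GALNT2 libraries did not overlap between conditions.

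Organelle pumps and calcium genes rose more often than they fell. In the vacuolar ATPase, which acidifies lysosomes and the Golgi, 8 of 23 rose and 1 fell (median 0.26, 5 up without replicate 1), ATP6V0A1 (0.66) and ATP6V0A2 (0.73) among them; without deprived replicate 1 the increases numbered 3. In calcium handling 12 of 47 rose and 6 fell. NUCB2, a Golgi calcium-binding protein and precursor of nesfatin, was at 30.6, 27.3 and 28.4 CPM in 25 mM glucose and 216, 189 and 178 CPM in 0 mM (2.76 ± 0.148, adjusted p = 3.27e-09). Its paralogue NUCB1 was at 173, 176 and 173 CPM in 25 mM glucose and 471, 428 and 466 CPM in 0 mM (1.39 ± 0.130). SARAF, which dampens store-operated calcium entry, rose by 1.12, and CALM3, a calmodulin gene, was at 394, 409.8 and 391 CPM in 25 mM glucose and 187, 183 and 187 CPM in 0 mM (-1.10 ± 0.103). Each of these genes separated the libraries by glucose. Channels and pumps had 11 of 46 rose and 9 fell, with the endosomal and lysosomal chloride exchangers CLCN3 (1.59) and CLCN7 (0.77) up. ABC transporters had 6 of 23 rose and 4 fell (7 down with the replicate block); ABCC3, which exports conjugates, rose (0.75), as did ABCC10 (0.83).

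Of energy sensing genes more rose than fell. Among AMPK and mTORC1 components 12 of 33 rose and 2 fell (median 0.16), and 10 to 12 rose with any library left out. PRKAG2, an AMP-binding subunit of AMPK, was at 38.1, 41.6 and 43.7 CPM in 25 mM glucose and 67.6, 81.5 and 77.2 CPM in 0 mM (0.88 ± 0.110), and PRKAG1 rose by 0.84. FLCN, folliculin, which with LAMTOR3 acts on the lysosome in mTORC1 control, was at 41.0, 47.0 and 47.4 CPM in 25 mM glucose and 105, 85.2 and 93.1 CPM in 0 mM (1.06 ± 0.135), and LAMTOR3 rose by 0.65. The mTORC1 scaffold RPTOR was at 109.7, 109 and 95.6 CPM in 25 mM glucose and 64.3, 75.8 and 74.4 CPM in 0 mM and fell (-0.55). In none of these 3 genes did the libraries overlap between conditions. In the insulin and IGF axis 3 of 27 rose and 7 fell (6 up without the siATF4 library): IRS1, the docking protein of the receptors, was at 166, 145 and 139.8 CPM in 25 mM glucose and 45.9, 54.7 and 63.1 CPM in 0 mM (-1.46 ± 0.249), AKT1 stood at -0.49, and the receptor inhibitor GRB10 rose (1.16). IGFBP1 rose by 2.81, with 114 CPM in deprived replicate 1 and 35.2 and 32.2 CPM in the others; its value was 1.97 without that library and 3.40 without glucose replicate 1.

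Among growth factor pathways, several ligands and feedback inhibitors of the EGF receptor rose. Of the genes of this family 10 of 18 rose and 2 fell (median 0.70), and 8 to 11 rose with any library left out. AREG, the ligand amphiregulin, was at 61.5, 51.4 and 56.5 CPM in 25 mM glucose and 164, 163 and 162 CPM in 0 mM (1.53 ± 0.106, adjusted p = 4.4e-08). BTC, betacellulin, was at 3.77, 3.07 and 2.46 CPM in 25 mM glucose and 10.5, 8.27 and 6.59 CPM in 0 mM (1.45 ± 0.234). The feedback inhibitors rose as well, ERRFI1 at 96.0, 97.5 and 96.3 CPM in 25 mM glucose and 256, 202 and 221 CPM in 0 mM (1.23 ± 0.148) and LRIG1 by 1.28. All deprived libraries of these genes lay above all glucose libraries, while the receptor ERBB3 stood at -0.996 and missed the threshold without deprived replicate 1 (-0.78, adjusted p = 0.0593) or glucose replicate 2 (-0.84, adjusted p = 0.0606). In FGF, PDGF and VEGF signalling 9 of 31 rose and 5 fell (median 0.45, 8 down with the replicate block). FGF2 rose (1.22), as did the receptor kinase AXL (0.76), while the receptors FGFR3 (-1.87) and FGFR4 (-1.25) fell.

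Other receptor pathways had members on either side. TGF-beta and BMP genes had 6 of 43 rose and 5 fell (10 up with the replicate block, 10 up and 10 down without the siATF4 library), with follistatin FST at 1.16, 0.952 and 1.12 CPM in 25 mM glucose and 7.17, 4.28 and 4.44 CPM in 0 mM (2.30 ± 0.241), the receptor ACVR1 at 1.38 and the inhibitor SMAD6 at -1.24. Notch genes had 4 of 31 rose and 6 fell; the ligand JAG2 fell (-1.23), and the decreases numbered 2 without glucose replicate 2. Hippo genes and YAP targets had 6 of 29 rose and 6 fell (3 down without replicate 1), of which the targets ANKRD1 (1.91) and CCN2 (1.17) rose and the factor TEAD2 (-0.90) fell. Eph receptors and ephrins had 1 of 17 rose and 2 fell, with EPHA2 at 0.83. Semaphorins, plexins, netrins and slits had 6 of 33 rose and 4 fell (7 down with the replicate block). The netrin receptor UNC5B was at 1.53, 0.757 and 0.715 CPM in 25 mM glucose and 5.53, 6.57 and 5.38 CPM in 0 mM (2.53 ± 0.323), the netrin NTN4 rose by 1.30, and SEMA6B stood at -2.04. In cyclic AMP signalling 5 of 36 rose and 13 fell (median -0.30, 1 up without replicate 1). The phosphodiesterases PDE7A (-1.06) and PDE7B (-1.45), which degrade cyclic AMP, fell, as did RGS3, which switches off G proteins (-0.99).

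Among transcription factors, more Kruppel-like factors and more members of the MYC network rose than fell. Of KLF and SP factors 6 of 19 rose and 0 fell (median 0.30), 3 of them without glucose replicate 3. KLF4 was at 11.2, 17.3 and 16.7 CPM in 25 mM glucose and 87.5, 35.3 and 46.4 CPM in 0 mM (1.90 ± 0.325), highest in deprived replicate 1 and at 1.27 with every replicate 1 left out, and KLF2 rose by 1.23. In the MYC, MAX and MXD network 6 of 12 rose and 2 fell (median 0.27). MXD1, which competes with MYC for MAX, was at 6.56, 3.40 and 4.45 CPM in 25 mM glucose and 83.8, 21.6 and 30.4 CPM in 0 mM (3.23 ± 0.554), and 2.43 without deprived replicate 1. MNT (0.71) and MXI1 (0.97), repressors of the same kind, rose, and MYCL did so by 1.43. Clock genes had 7 of 23 rose and 3 fell. NFIL3, a repressor of clock output, was at 11.8, 9.04 and 8.98 CPM in 25 mM glucose and 41.3, 32.1 and 33.2 CPM in 0 mM (1.84 ± 0.173), the activator ARNTL rose by 0.96 and the repressor NR1D1 by 0.93. NFIL3 and MXD1 libraries did not overlap between conditions. Nuclear receptors and coregulators had 3 of 32 rose and 8 fell, the thyroid receptor THRA (-1.18) and the retinoic acid receptor RARG (-0.91) being down and PPARG (0.66) up. Forkhead, SOX and HOX factors had 5 of 48 rose and 10 fell; SOX2 was at 11.7, 6.94 and 5.72 CPM in 25 mM glucose and 2.24, 2.54 and 1.70 CPM in 0 mM (-1.91 ± 0.311) and HOXB9 at 14.2, 13.6 and 13.4 CPM in 25 mM glucose and 37.0, 40.9 and 40.2 CPM in 0 mM (1.52 ± 0.127). Without deprived replicate 3 the decreases of that list numbered 5.

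At the cell surface and in the cytoskeleton the direction depended on the component. Tight junction and polarity genes had 6 of 32 rose and 6 fell. OCLN, occludin, was at 25.8, 23.9 and 25.7 CPM in 25 mM glucose and 106, 106 and 99.8 CPM in 0 mM (2.05 ± 0.143, adjusted p = 4.8e-08), its relative MARVELD2, tricellulin, rose by 1.28, and the polarity genes PARD6B (1.05) and PRKCZ (1.16) rose, while CLDN2, above, and SCRIB (-0.63) fell. Occludin was far higher in every deprived culture than in any culture with glucose. Cadherins, desmosomes and keratins had 5 of 34 rose and 6 fell; beside CDH15, retinal cadherin CDH4 rose (1.30), and plakoglobin JUP (-0.88) and envoplakin EVPL (-0.82) fell. Epithelial-mesenchymal transition genes had 2 of 22 rose and 4 fell (5 up with the replicate block). TCF3, a repressor of CDH1, was at 85.1, 83.0 and 76.8 CPM in 25 mM glucose and 40.3, 38.5 and 40.7 CPM in 0 mM (-1.03 ± 0.0829), and THY1 stood at -1.78. SNAI1, another repressor of CDH1, was at 4.62, 4.33 and 3.93 CPM in 25 mM glucose and 36.2, 3.53 and 8.51 CPM in 0 mM, where deprived replicate 2 lay below the glucose libraries; it passed narrowly (1.91, adjusted p = 0.0490) and stood at 0.48 (adjusted p = 0.600) without deprived replicate 1, and it also missed the threshold without any one of the glucose libraries (adjusted p of 0.105 to 0.129) or with the transfection block (adjusted p = 0.144).

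Actin and myosin genes had 2 of 49 rose and 11 fell (median -0.10, 17 down without the siATF4 library). The formin DIAPH3 (-1.61), the formin DIAPH1 (-0.86) and fascin FSCN1 (-0.85), which build and bundle filaments, fell, and ACTG1 was among those that rose; the decreases numbered 7 without deprived replicate 1. Tubulins and microtubule regulators had 6 of 38 rose and 14 fell (median -0.25, 3 up without replicate 1). TUBG1, the gamma tubulin that nucleates microtubules, was at 149.6, 159 and 142 CPM in 25 mM glucose and 67.2, 60.9 and 61.0 CPM in 0 mM (-1.25 ± 0.124), and STMN1, which sequesters tubulin, fell by 1.35 on the log2 scale. TUBE1, epsilon tubulin of centrioles, was at 3.71, 4.56 and 5.25 CPM in 25 mM glucose and 18.9, 20.9 and 18.1 CPM in 0 mM (2.10 ± 0.149). These tubulins separated the conditions in opposite directions. Kinesins and dyneins outside mitosis had 4 of 38 rose and 3 fell, with KIF26A at -2.13 and KIF1A at 0.89. Cilium and centriole genes had 8 of 47 rose and 9 fell; PLK4, which starts centriole duplication, fell (-1.23), and BBS12, a chaperonin of the BBSome, rose (1.00).

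Secreted and immune genes changed in both directions, and several of their counts depended on the fit. Complement and coagulation genes had 9 of 44 rose and 3 fell (6 down with the replicate block or without the siATF4 library). CD55, which protects cells from complement, was at 33.6, 29.8 and 31.1 CPM in 25 mM glucose and 192, 159.5 and 148 CPM in 0 mM (2.40 ± 0.126, adjusted p = 2.66e-09). CD55 was higher in all deprived cultures. TFPI, the inhibitor of tissue factor, rose by 1.17. Matrix metalloproteinases, ADAMs and inhibitors had 2 of 35 rose and 7 fell (5 up and 12 down with the replicate block), with MMP15 at -1.41. TIMP3 (1.63) and MMP10 (2.23) passed narrowly and missed the threshold without deprived replicate 1 (adjusted p = 0.338 and 0.274). Both also missed it without any one of the glucose libraries, and MMP10 without deprived replicate 3. MHC class I and antigen processing had 1 of 21 rose and 1 fell (6 up and 5 down with the replicate block, 5 up with the transfection block): the peptidase ERAP1 rose (1.30). Prostaglandin and leukotriene genes had 1 of 20 rose and 2 fell. PLA2G4A, which releases arachidonic acid, was at 28.6, 26.2 and 25.2 CPM in 25 mM glucose and 8.04, 7.40 and 6.55 CPM in 0 mM (-1.86 ± 0.177), and HPGD, which inactivates prostaglandins, was at 179, 132 and 149.6 CPM in 25 mM glucose and 48.8, 61.1 and 60.9 CPM in 0 mM (-1.43 ± 0.183). Both enzymes were lower in every deprived library than in any glucose library.

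Of lineage genes of the lung more fell than rose. Of 19 airway and alveolar genes that passed the filter, 2 of 19 rose and 5 fell (10 down with the replicate block or with the transfection block). AGR2, a disulfide isomerase of mucous cells, was at 34.7, 87.3 and 82.8 CPM in 25 mM glucose and 269, 371 and 338 CPM in 0 mM (2.26 ± 0.408), and with LAMP3 it was the other gene that rose. FOXA1, a factor of endodermal lineages, fell (-0.75), as did ABCA3, the lipid pump of lamellar bodies (-0.44), and keratin KRT19 (-0.75), the last pair not with every replicate 1 left out (ABCA3 adjusted p = 0.0733, KRT19 adjusted p = 0.0714); the mucin MUC1 stood at -1.37 and lost its call without glucose replicate 1 (-0.90, adjusted p = 0.0852). Of 10 markers of other cell types that passed, 1 of 10 rose and 4 fell: COL1A1 was at 18.4, 21.1 and 20.7 CPM in 25 mM glucose and 7.94, 6.65 and 8.79 CPM in 0 mM (-1.36), and CD14, a monocyte receptor, stood at -1.39.

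A grouping by the letters of gene symbols, which needs no knowledge of function, gave 72 families of at least 20 tested members, with 3795 genes. NUP genes, nucleoporins, had the highest share of decreases, 16 of 22 with none up. PDE genes followed with 11 of 22 down and 1 up, KIF genes with 15 of 36 down and 2 up, and CEP genes of the centrosome with 14 of 36 down and 4 up. On the rising side, SEC genes had 12 of 26 up, though 14 of the 26 belong to the ER lists. DNAJC genes had 8 of 26 up and 3 down, and EIF genes 16 of 55 up and 8 down. RNF ubiquitin ligases had 20 of 73 up and 5 down. STK genes had 6 of 23 up and 1 down, and SNX sorting nexins 7 of 28 up and none down. Ribosomal proteins did not stand out by counts. RPL genes had 9 of 50 up, near the 15.6% of all genes, and none down, with a median of 0.40. RPS genes had 2 of 44 up and 3 down, with a median of 0.35. Among 424 ZNF genes 63 rose and 33 fell. MRPS genes of the mitochondrial ribosome had 2 of 29 up and none down.

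How many genes passed depended on their level and length. In the lowest decile of levels, up to 0.652 CPM, 6.42% rose and 7.47% fell, where the median SE was 0.602. In the highest decile, from 129 CPM, 22.7% rose and 17.5% fell, with a median SE of 0.153. Genes in the shortest decile by exon length rose in 10.7% and fell in 5.23%, and those in the seventh decile rose in 16.5% and fell in 22.2%. The median fold change lay between -0.06 and 0.08 in every decile of level and of exon length. Reads were not stranded, so genes that overlap others on either strand are uncertain. Of the genes named, TUBA1B shares 36.6% of its exon length with another gene, XPC 30.4%, RAD54L 25.1%, EIF4E2 24.2%, KHK 23.8%, FANCA 23.6%, SQSTM1 22.04%, EDC4 21.2% and SUV39H1 20.3%.

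Promoter sequences were read for the motifs of factors known to answer to ER stress and to the cell cycle. RefSeq promoters (250 bases before to 50 after the transcript start, GRCh38.p14) were matched by symbol for 11146 of the tested genes, of which 570 rose and 584 fell by at least 1 on the log2 scale; for 7613 the start lay within 100 bases of the 5′ end in the deposited table. Motifs were searched on both strands. The ER stress response element, bound by ATF6 with NF-Y (CCAAT, 9 free bases, CCACG), was in 15 promoters (0.135%), of which 14 belonged to genes that rose and none to genes that fell. Of these 14 genes, HSPA5, HSP90B1, CALR, CRELD2, XBP1, ERO1B and ALG12 are in the ER stress and ATF4 lists that were set aside. FRG2 and FRG2B have near-identical copies elsewhere in the genome and are uncertain. Of genes that rose by at least 1 outside the ER stress and ATF4 lists, 5 of 479 had it (1.04%). These were FRG2, FRG2B, FICD, SERP1 and TRIM5. They thus include the uncertain FRG2 and FRG2B, and FICD, which acts on the ER chaperone BiP though it is in no list. SERP1, a stress-associated ER protein by name, is also outside the ER stress and ATF4 lists. Genes outside those lists can therefore still be ER genes. The variant ERSE-II (ATTGG, 1 free base, CCACG) was in 12 promoters (0.108%), 4 of genes that rose and 2, GYS1 and SHCBP1, of genes that fell. Of the 4, HERPUD1, HYOU1 and SDF2L1 are in the ER stress and ATF4 lists. The CCAAT box alone, which both elements contain, was in 36.3% of all promoters, in 43.5% of those of genes up by at least 1 and in 41.4% of those down. The first pair of sequences is shown because these are genes outside the lists that rose and hold the full element, in capitals, within 30 bases of flank on each side where the window allowed.

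FICD, ERSE, chr12:108515093-108515171, + strand: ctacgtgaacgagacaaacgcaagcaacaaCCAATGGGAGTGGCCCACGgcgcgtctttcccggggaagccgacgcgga

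NUCB1, ERSE-II on the opposite strand, chr19:48900213-48900283, + strand: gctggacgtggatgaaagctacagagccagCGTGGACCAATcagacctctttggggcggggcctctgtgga

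FICD, the enzyme that attaches AMP to the ER chaperone BiP, rose by 2.69 on the log2 scale and NUCB1 by 1.39. The composite site of C/EBP and ATF factors, to which ATF4 binds (TGATGNAA), was in 189 promoters (1.70%), in 27 of 570 up by at least 1 (4.74%), in 16 of the 479 outside the lists (3.34%) and in 9 of 584 down (1.54%). KLHDC7B and SYTL1, a synaptotagmin-like protein of vesicle docking, carried it, and are shown as genes of no list, with the site in capitals.

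KLHDC7B, C/EBP-ATF site on the opposite strand, chr22:50545718-50545785, + strand: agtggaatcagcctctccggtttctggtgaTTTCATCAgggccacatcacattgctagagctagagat

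SYTL1, C/EBP-ATF site on the opposite strand, chr1:27341946-27342013, + strand: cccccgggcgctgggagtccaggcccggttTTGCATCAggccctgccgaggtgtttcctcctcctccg

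Sites for E2F, the factors of S-phase genes (TTTCCCGC, TTTGGCGC, TTTCGCGC or TTTGCCGC), were in 594 promoters (5.33%), in 71 of the 584 down by at least 1 (12.2%) and in 21 of the 570 up (3.68%). In the 250 bases before the start alone the shares were 4.43% of all and 8.73% of those down. E2F2 and POLA2, a subunit of the primase complex, represent the genes that fell, with the site in capitals.

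E2F2, E2F site, chr1:23531238-23531305, − strand: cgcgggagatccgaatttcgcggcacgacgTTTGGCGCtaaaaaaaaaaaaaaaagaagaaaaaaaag

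POLA2, E2F site, chr11:65261879-65261946, + strand: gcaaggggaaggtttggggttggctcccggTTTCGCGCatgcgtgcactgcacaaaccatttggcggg

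E2F2 fell by 3.19 and POLA2 by 2.43 on the log2 scale. Other motifs were searched in the same way. The unfolded protein response element (TGACGTGG) was in 0.924% of all promoters, 2.11% of those up by at least 1 and 0.514% of those down. The cyclic AMP response element (TGACGTCA), which shares letters with it, was in 3.07%, 2.63% and 3.42%, and the antioxidant response element (TGACNNNGC) in 15.1%, 19.3% and 14.6%. The E-box (CACGTG) was in 9.89%, 11.4% and 8.05%, the heat shock element (GAA, 2 free bases, TTC, 2 free bases, GAA) in 0.350%, 0.526% and 0, and the CArG box in 1.05%, 1.23% and 1.54%. A match of letters describes the sequence and does not show a bound site.

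**Figure D4:**
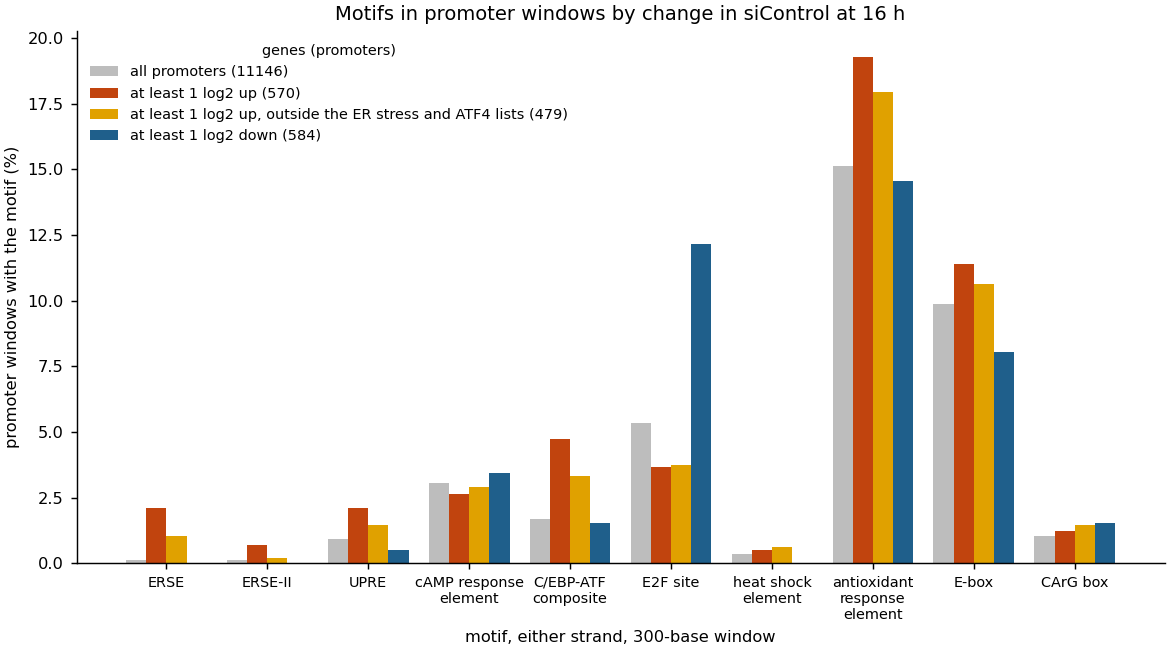
Percent of promoters that hold each motif except the CCAAT box, for all 11146 promoters and for genes down by at least 1 on the log2 scale (584). Genes up by at least 1 are drawn in full (570) and outside the ER stress and ATF4 lists (479). The E2F site is more frequent among genes that fell (12.2%) than among all (5.33%), and the C/EBP-ATF site among genes that rose (4.74% against 1.70%). Among genes that rose outside the lists the C/EBP-ATF share is 3.34%.

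The siControl response was then set beside the same deprivation in cells with siRNA against ATF4 or ATF6, 3 libraries per group, which have their own libraries in 25 mM glucose. With siATF4, 2326 protein-coding genes rose (16.2%) and 2268 fell (15.8%), and with siATF6 2381 rose (16.6%) and 2908 fell (20.3%). Genes that rose by at least 1 outside the ER stress and ATF4 lists numbered 652 in siControl, and 420 of them rose with siATF4 (64.4%) and 560 with siATF6 (85.9%). Their median log2 fold change was 1.45 in siControl, where they were chosen, 1.07 with siATF4 and 1.40 with siATF6. Of 771 that fell by as much, 616 fell with siATF4 (79.9%) and 714 with siATF6 (92.6%). 

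**Figure D5:**
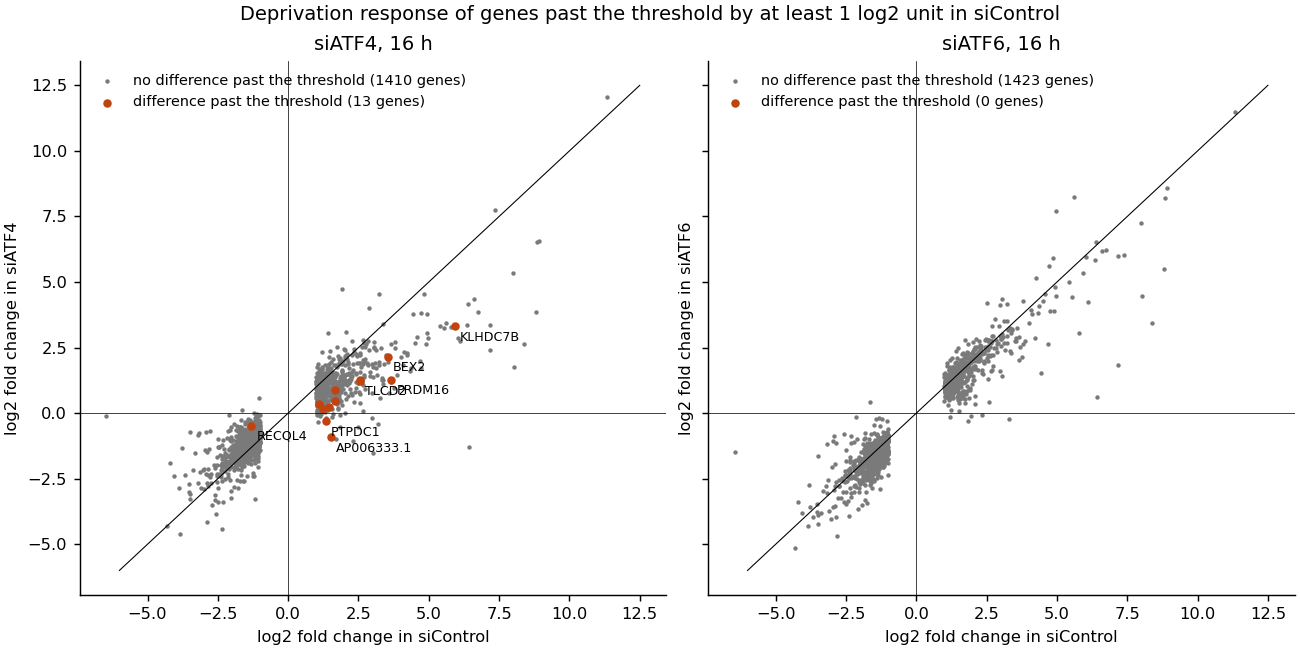
Log2 fold change of deprivation with siATF4 (left) and siATF6 (right) against that in siControl cells at 16 h. Drawn are genes outside the ER stress and ATF4 lists that rose or fell by at least 1 in siControl. DKK1 is therefore not drawn. Genes whose response differed at an adjusted p under 0.05 are marked. With siATF4 they lie below the diagonal except RECQL4, and with siATF6 there are none.

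A test of the difference in response found 30 protein-coding genes for siATF4, 2 higher (0.014%) and 28 lower (0.195%), with 17 of the 30 outside the ER stress and ATF4 lists. Without adjustment 1432 genes had a p under 0.05. The number depended on the fit: over all gene IDs it was 31, and a block on replicate number gave 143, a block on the transfection 12, DESeq2 202, and leaving out a siATF4 library that stands apart (0 mM, replicate 3) 50. It was 11 to 23 with any 1 siControl library left out, and 0 with the libraries of 6 h included. KLHDC7B rose by 5.93 in siControl and by 3.32 with siATF4, and PRDM16 by 3.67 and 1.26. TLCD2, a membrane protein with a TLC domain, was at 8.35, 10.5 and 10.4 CPM in 25 mM glucose and 49.1, 59.9 and 62.5 CPM in 0 mM, a rise of 2.55 against 1.23 with siATF4. BEX2 rose by 3.54 and 2.14. The rise of PTPDC1, a protein phosphatase, by 1.33 in siControl had no counterpart with siATF4 (-0.31), and that of IDH1 (1.24) stood at 0.17, neither past the threshold there. RECQL4, a helicase of replication, fell less with siATF4 (-0.47) than in siControl (-1.30), and DKK1, a secreted Wnt inhibitor, rose with siATF4 (1.00) and did not pass in siControl (-0.39). With each of the 6 siControl libraries left out in turn, the differences of TLCD2 and PTPDC1 kept passing, that of IDH1 passed in 3 of the 6 fits and that of DKK1 in 1, while those of KLHDC7B (adjusted p of 0.0564 to 0.151), PRDM16 (0.0614 to 0.130), BEX2 (0.0812 to 0.145) and RECQL4 (0.0812 to 0.129) passed in none. For siATF6 no gene passed in either direction (0%) in the edgeR fit of the 18 libraries without a block. There 345 had an unadjusted p under 0.05. Over all gene IDs DESeq2 gave 18 and the replicate block, also in edgeR, 2.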

How the data were processed

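Poly(A)-enriched RNA of A549 cultures was read as non-stranded pairs of 150 bases, per the labels' protocols. The authors deposited expected counts per gene from RSEM in a single table; per the submitters' processing notes, fastp, STAR, RSEM and GRCh38 were used, in versions and with an annotation release not given in the sources used here. Columns were matched to libraries by the names in the labels, and groups were taken from the titles. Expected counts, 9.32% of which were not whole, were rounded.

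From these counts, genes were tested in R 4.3.3 with edgeR 4.0.16 over the 18 libraries of 16 h (group means, filterByExpr with a minimum count of 10 and a minimum total of 15, TMM factors, robust quasi-likelihood fit, 12 residual degrees of freedom). Benjamini-Hochberg adjustment ran over all 18013 gene IDs tested at a threshold of 0.05. CPM use TMM-scaled totals, except for the check of cell type markers, which uses deposited totals. The libraries of the siControl comparison held 41.0 to 51.3 M counts. The median SE was 0.602 in the lowest decile of levels and 0.153 in the highest. The parts of counting and of spread between cultures in the SE were not separated. The steps were tested on simulated data with known changes.

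The genes, lists and tests were chosen with earlier results of these data known, so no list count is independent support. Named genes follow a rule: outside the ER stress and ATF4 lists, up to 15 per direction with the largest change, a mean of at least 5 CPM in a group and the same direction in all 3 same-numbered pairs; 10 per direction with the largest change in CPM; per list, 2 to 4 with the smallest adjusted p in the main direction and 2 in the other; and up to 6 per direction in the tests between siRNAs. FICD, SYTL1, POLA2 and the other genes named for their promoters, spread or separate checks were chosen after their values were seen. Of the names in the lists, 3 matched no row.

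The siControl replicates are paired by number: a transfected culture was divided over the media, and same-numbered libraries deviated together (r across genes of 0.51, 0.25 and 0.30), though replicates 2 and 3 with each other gave 0.15 and 0.21. In siATF4 same-numbered libraries gave 0.55, -0.36 and -0.09, so the number does not pair them by this measure. There 25 mM replicate 2 gave 0.58 with 0 mM replicate 3, and 25 mM replicate 3 gave 0.34 with 0 mM replicate 2. Both block fits still use the number in siATF4, so their counts rest in part on a pairing that these values do not show. Alternatives were DESeq2 1.42.0, other scaling factors, no filter, only the 6 libraries, all 36, a block on replicate number or on transfection, each library left out in turn, and, added after seeing the data, every replicate 1 or a siATF4 library left out. Libraries of 6 h entered only the fit of all 36. Earlier results on these data had shown a failed library among them, and others that moved against their labels. A few genes that the rule names are not reported here.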

Additional observations from a re-analysis of the deposited data

Results flagged for a closer look

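The response to deprivation differed between siATF4 and siControl cells, by the test of that difference, for 31 gene IDs, 30 of them protein-coding. Among the genes named, the response with siATF4 was smaller on the log2 scale by -2.61 for KLHDC7B, -2.45 for AP006333.1, a protein-coding gene without a symbol of its own, -2.41 for PRDM16, -1.64 for PTPDC1, -1.39 for BEX2, -1.32 for TLCD2 and -1.06 for IDH1. It was higher by 1.39 for DKK1 and by 0.83 for RECQL4. ATF4 mRNA itself rose by 1.54 in siControl cells and by 0.53 with siATF4, a difference of -1.01 that did not pass the same test (adjusted p = 0.0570). With each siControl library of 16 h left out in turn, TLCD2 (adjusted p of 0.0030 to 0.020) and PTPDC1 (0.0218 to 0.0437) passed in all 6 fits and AP006333.1 in 1.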

How the results depend on the processing

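Among protein-coding genes the count past the threshold was 3439 to 5880 with DESeq2, other scaling factors, no filter, either block or a library left out, 6254 in the 6 libraries alone and 6021 without the siATF4 library that stands apart, and no gene called in both fits changed direction. The median fold change moved by less than 0.1. Fitting all 36 libraries gave 531 gene IDs, of which 463 were protein-coding (249 up, 214 down), 325 with siATF4, 831 with siATF6 and 0 for the difference in response with siATF4; the cause was not tested.

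Pairing: the replicate block called 5880 protein-coding genes, which include 4607 of the 4608, and changed no call among named genes that had passed. The transfection block called 4813, and 14 named genes no longer passed (ACTB, EFNA5, ESCO1, NOTCH1, ORMDL1, PROS1, PSMB9, RASD1, SDHD, SELENOW, SNAI1, SRSF8, TCF4 and TK2). For the difference with siATF4 (31 gene IDs) it gave 143, the transfection block 12, DESeq2 202, every replicate 1 left out 15, the siATF4 library left out 50, and single siControl libraries left out 11 to 23. For siATF6 (0 gene IDs) DESeq2 gave 18, the replicate block 2, the siATF4 library left out 6 and single libraries left out 0 to 1; the causes were not tested.

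Of 425 named genes past the threshold, 368 stayed past it with each of the 6 libraries left out. Values that changed sign were under the threshold throughout: ALDH1A1 (-0.34 to 0.14 with single libraries left out, 0.12 without every replicate 1), MT-CO1 (-0.16 to 0.35, and -0.065) and MT-CO2 (-0.25 to 0.16, and 0.048 and 0.026 with the replicate and transfection blocks). Of 150 list counts, 56 moved by over 1.5 times with some library left out, most of them counts under 10. For genes under 0.652 CPM the median SE of 0.602 limits what could be called.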

Other observations

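The share of genes that changed differed between chromosomes. On chromosome 19, 106 of 1057 tested genes rose (10.0%) and 207 fell (19.6%), and on chromosome 17, 135 of 897 rose (15.1%) and 193 fell (21.5%). Chromosome 6 had the opposite lean, with 127 of 725 up (17.5%) and 98 down (13.5%) and a median log2 fold change of 0.11, as did chromosome 5, with 121 of 646 up (18.7%) and 103 down (15.9%). None of the 13 mRNAs of the mitochondrial genome passed in the edgeR fit of the 18 libraries without a block.

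ZACN, a zinc-activated ion channel, was at 0.0196, 10.2 and 9.03 CPM in 25 mM glucose and below 0.1 CPM in every deprived library, with a log2 fold change of -6.46 (adjusted p = 0.0402). Glucose replicate 1 was as low as the deprived libraries, so the gene did not meet the rule for named genes and is given here after its values were seen. Of the other genes outside the ER stress and ATF4 lists whose response differed with siATF4, GCLM, the modifier subunit of glutathione synthesis, stood at 0.67 in siControl and -0.18 with siATF4, LMO4, a transcriptional adaptor, at 0.49 and -0.54, MOCOS, which sulfurates the molybdenum cofactor, at 1.45 and 0.23, and AKNA, a centrosomal protein, at 2.54 and 1.28. PPP1R10, a regulator of a nuclear phosphatase, fell further with siATF4 (-1.52) than in siControl (-0.49).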
